A study of Mus musculus with 40 samples.

Results

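The 10 genes described here mark Kupffer cells, the resident macrophages of the liver, or macrophages in general: Clec4f, Vsig4, Timd4, Marco, Cd5l, C1qa, C1qb, C1qc, Cd68 and Csf1r. They were taken by gene symbol from a table of 21448 gene symbols and 30146 probes, in which they own 13 probes. For C1qb, Cd68 and Csf1r, which have 2 probes each, values are those of the probe with more reads unless the other is named. The liver was fixed in formalin and embedded in paraffin, and was scraped whole from the slides, so each library holds the RNA of all liver cells and none was sorted for macrophages. In such bulk tissue, fewer cells of a type and less RNA per cell cannot be told apart.

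The mice were wildtype Crl:CD1(ICR) animals of both sexes that received GenX, a perfluorinated ether acid salt, by oral gavage for 90 days. Each sex had a control group (0) and groups at 0.1, 0.5 and 5 mg/kg body weight per day, with 5 mice in each of the 8 groups. A female of the 0.5 mg/kg group (mouse 355) was not used because of its low read total, which leaves 4 mice in that group and 39 libraries in all. RNA was measured with TempO-Seq, in which a pair of short DNA probes that lie side by side on their target RNA is joined, copied and sequenced.

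Kupffer cells line the liver sinusoids, where they take up bacteria, dying cells and worn red cells from the blood. Clec4f is a C-type lectin that in mice is largely restricted to these cells. Vsig4 is a receptor for the complement fragment C3b, Timd4 binds phosphatidylserine on dying cells, and Marco is a scavenger receptor. Cd5l encodes a secreted protein of the scavenger receptor family that tissue macrophages release. C1qa, C1qb and C1qc encode the chains of C1q, the molecule that recognises targets for the classical complement pathway, and macrophages are a main source of these chains. Cd68 is a glycoprotein of late endosomes and lysosomes, and Csf1r is the receptor for the growth factors CSF1 and IL-34, on which macrophages depend. The C1q genes lie side by side on chromosome 4 in the order C1qb (136880129 to 136886187), C1qc (136889804 to 136893065) and C1qa (136895917 to 136898803), all on the minus strand of GRCm38.

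The libraries held 10341341 to 15562253 reads. Counts clustered at multiples of 20.8 to 44.8 reads, the approximate number of reads that 1 captured molecule gave, so that a library stood for about 287241 to 656745 molecules. Male mice at 5 mg/kg had a median of 591294 molecules against 329947 in control males. Y-linked genes had reads in all 20 libraries labelled male and in none of the 20 labelled female. The reads carry no molecular identifiers, so limits computed from counts cover counting error only. Normalized counts are given as CPM, counts rescaled so that libraries share 1 total, with TMM factors. Probes differ in how well they bind, so CPM values were compared between mice and not between genes.

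The 10 markers differed widely in detection. C1qa, C1qb, C1qc, Cd5l, Cd68 and Csf1r had reads in all 39 libraries, Clec4f in 31, Vsig4 in 18 and Marco in 8. Reads that stood for at least 0.5 of a molecule were found in 29 libraries for Clec4f, 17 for Vsig4 and 7 for Marco. Timd4 had no read in any library, which with the 3 molecules that a count of 0 allows is an upper limit of 4.57 to 10.4 on a CPM scale counted in molecules, depending on the library. The second probe of Csf1r had reads in 2 libraries only, and both probes that lacked reads nearly everywhere fell under the filter on low counts, so 9 of the 10 markers were tested.

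Few molecules stood behind each marker. The median library held about 25.3 molecules of C1qb, 17.2 of Cd5l, 8.08 of Csf1r, 6.73 of C1qc, 6.05 of C1qa and 3.7 of Cd68. Clec4f reached a median of 1.39 molecules and a highest value of 8.27. Vsig4 never exceeded 2.29 molecules and Marco 1.86. A library with 1 molecule more or less of the last 3 genes moves by as much as its whole value, so they are described by detection and level below, and their fold changes enter only the counts and medians over all 9 tested markers.

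**Figure D1:**
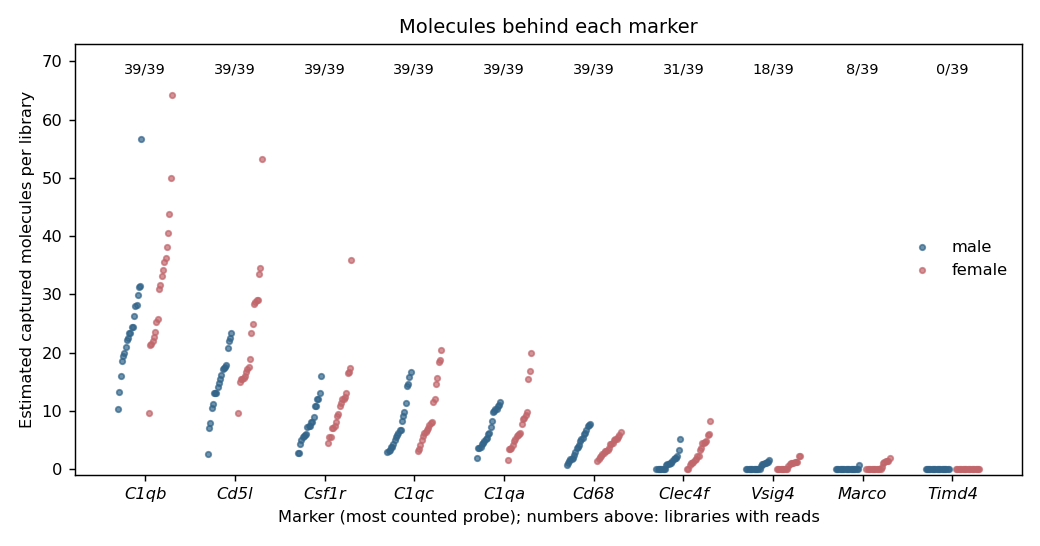
Estimated captured molecules per library (y axis) for the most counted probe of each marker (x axis), with one point per mouse, male in blue and female in red, sorted within each sex, and the number of libraries with reads above. C1qb and Cd5l rise highest, with up to 64.2 and 53.2 molecules, and Timd4 lies at 0 in all 39 libraries.

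Within groups, the coefficient of variation of CPM had a median over the 8 groups of 30.6% for C1qb, 34.6% for Cd5l, 44.7% for C1qa, 45.3% for Csf1r, 49.7% for Cd68 and 50.4% for C1qc. The counting error of the median number of molecules alone would be 19.9% for C1qb, 24.1% for Cd5l, 40.7% for C1qa, 35.2% for Csf1r, 52% for Cd68 and 38.5% for C1qc. The spread between mice of one group was therefore of the size of the counting error for Cd68 and C1qa, and exceeded it by more for the other markers.

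The question of the main comparisons was whether GenX changed these genes within each sex. No marker passed the threshold, an adjusted p below 10% in edgeR's quasi-likelihood test, in any of the 6 comparisons of a treated group with control mice of its sex. In males 0 of the 9 tested markers were called at 0.1 mg/kg, where 0.0336% of all 17877 probes were called, 0 at 0.5 mg/kg, where 2.38% were, and 0 at 5 mg/kg, where 8.28% were (4.83% higher and 3.45% lower). In females 0 of 9 were called at 0.1, 0.5 and 5 mg/kg, against 0%, 0.213% and 3.66% of all probes (1.83% higher and 1.83% lower at 5 mg/kg). At an unadjusted p below 0.05, 2 markers passed in each of the male comparisons, 1 in females at 0.1 mg/kg, 1 in females at 0.5 mg/kg and 0 in females at 5 mg/kg. The share of all probes with such a p was 13.6%, 18.1% and 22.1% in males and 10.3%, 10.2% and 17.9% in females, in order of dose. Marco, which had reads in 1 of the 20 males, was among the markers that passed in each male comparison and in females at 0.1 mg/kg. DESeq2 called 1 marker in all these comparisons, Csf1r in males at 5 mg/kg, where DESeq2 called 10.4% of the probes with an adjusted p.

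No marker had treated and control groups that did not overlap, in any of the 6 comparisons. Among all probes the share with groups that did not overlap was 0.587%, 3.34% and 8.48% in males and 0.571%, 1.7% and 3.35% in females, in order of dose.

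**Figure D2:**
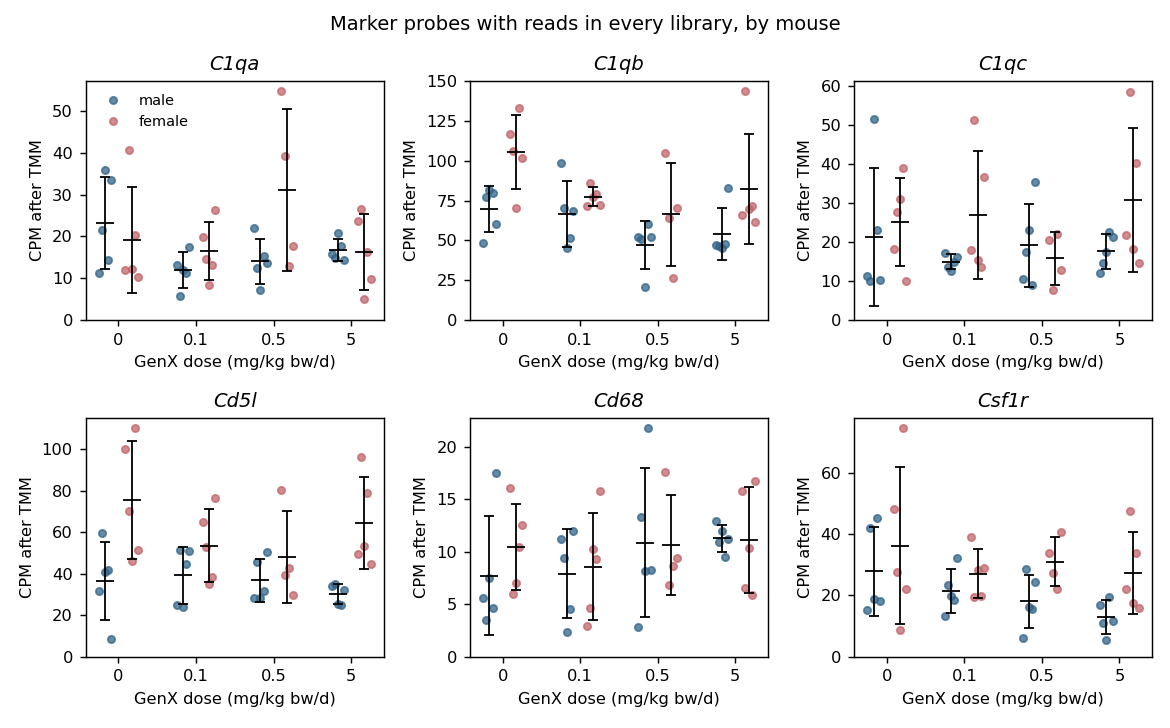
CPM after TMM scaling (y axis, from 0) by GenX dose (x axis) for the 6 markers with reads in every library. Each point is a mouse, male in blue and female in red, and the black bars give the mean and SD of each group; the treated groups overlap the control group of their sex in every panel.

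Csf1r had the lowest adjusted p of the 6 comparisons. In control males it stood at 15.1, 18.3, 18.8, 41.8 and 45.2 CPM, and in males at 5 mg/kg at 5.34, 10.9, 11.7, 17 and 19.4 CPM. The treated mice lay at the lower end and their range overlapped with the lower 3 of the 5 controls. The means of the male groups were 27.9 ± 14.4 (SD, n = 5), 21.4 ± 7.04 (n = 5), 18.1 ± 8.66 (n = 5) and 12.9 ± 5.51 CPM (n = 5) from control to the highest dose. The log2 fold change at 5 mg/kg was -1.11 (SE 0.42, 95% interval -1.96 to -0.27), with an adjusted p of 0.119 in edgeR's quasi-likelihood test. This lay just above the threshold, and 5 of the 7 alternative settings put it just below, with adjusted p values from 0.0388 to 0.0985. So did leaving out mouse 101 or 105 (controls), 404 (treated), or 153 or 301 (other groups), with a lowest adjusted p of 0.0785.

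In females Csf1r did not show a difference of this kind. Control females ranged from 8.81 to 74.4 CPM with a median of 27.5, and females at 5 mg/kg from 16 to 47.6 CPM with a median of 22. The log2 fold change was -0.40 (SE 0.41, 95% interval -1.24 to 0.43). The interaction test at 5 mg/kg did not call Csf1r, so the male value was not shown to differ from the female one.

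C1qb, the most counted of the C1q chains, lay below the control mean in all 6 treated groups, although no difference was called. With the library of mouse 355 included, the estimate for females at 0.5 mg/kg turned positive (log2 fold change 0.26), and without 1 mouse that for males at 0.1 mg/kg reached 0.05. Control females had 70.3, 102, 106, 117 and 133 CPM, those at 0.1 mg/kg 71.6, 72.4, 77.5, 79.3 and 86.2 CPM, those at 0.5 mg/kg 26.3, 64.4, 70.1 and 105 CPM, and those at 5 mg/kg 61.5, 66, 70, 71.5 and 144 CPM. In each treated female group most mice fell under 4 of the 5 controls. Control males had 48.5, 60.5, 77.6, 80 and 81.7 CPM against 20.8, 50.7, 52.1, 52.5 and 60.2 CPM at 0.5 mg/kg. The log2 fold change at 0.5 mg/kg was -0.56 in males (SE 0.27, adjusted p = 0.263, edgeR) and -0.67 in females (SE 0.29, adjusted p = 0.485, edgeR).

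The second C1qb probe gave smaller differences at the same dose, with a log2 fold change of -0.08 in males (SE 0.33) and -0.36 in females (SE 0.35). Across the 39 libraries the log2 CPM of the 2 C1qb probes had a Pearson correlation of 0.52, and that of the 2 Cd68 probes -0.04. The latter probes held a median of 3.7 and 2.2 molecules.

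C1qa and C1qc, the other chains, varied more between mice. C1qa in males at 0.1 mg/kg ranged from 5.86 to 17.6 CPM with a mean of 12 ± 4.21 (SD, n = 5), against 11.3 to 35.8 CPM and a mean of 23.3 ± 11 (n = 5) in controls. Its log2 fold change of -0.96 (SE 0.44, adjusted p = 0.35, edgeR) was not called. In females at 0.5 mg/kg the mean of C1qa was 31.2 ± 19.4 CPM (n = 4), above the control mean of 19.1 ± 12.6 (n = 5), with mice from 12.9 to 54.7 CPM, and this was not called either (log2 fold change 0.71, SE 0.46). C1qc had log2 fold changes from -0.67 to 0.29 over the 6 comparisons, with SE from 0.44 to 0.47.

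Cd5l and Cd68 were not called in males either. Cd5l in males at 5 mg/kg had 24.8, 25.4, 32, 34.3 and 34.8 CPM, inside the control range of 8.58 to 59.5 CPM. Its log2 fold change was -0.27 (95% interval -0.92 to 0.38, or 0.529-fold to 1.3-fold), so neither a fall below 0.529-fold nor a rise above 1.3-fold lies in the interval. Among the markers with reads in every library, Cd68 was the one with a positive estimate at all male doses, reaching 0.55 (SE 0.57) at 5 mg/kg, where the mice ranged from 9.51 to 12.9 CPM against 3.49 to 17.5 CPM in controls. The second Cd68 probe had a negative estimate there (-0.25, SE 0.83).

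**Figure D3:**
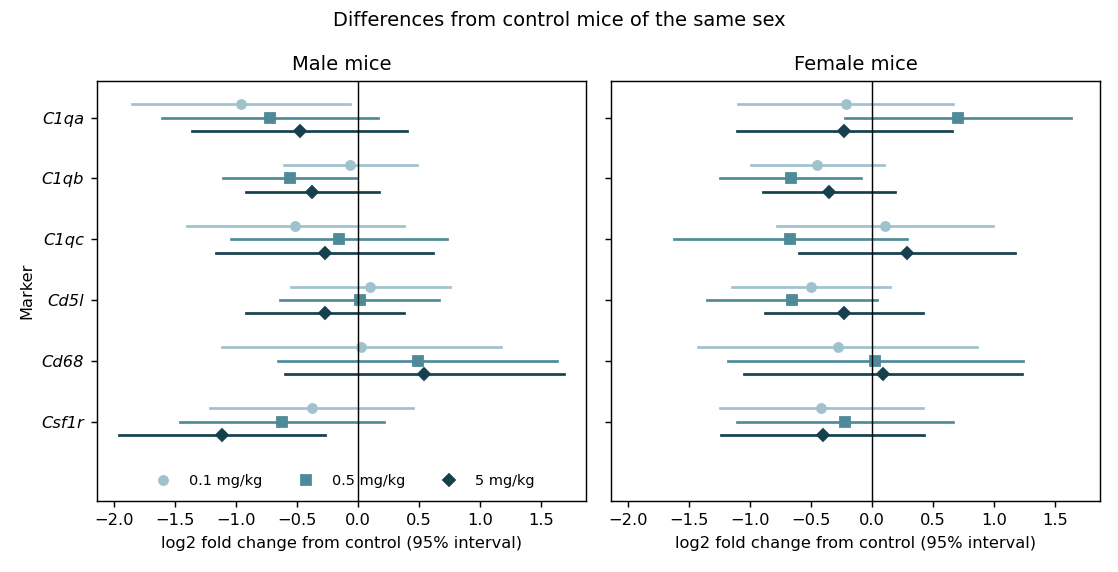
Log2 fold change from control mice of the same sex (x axis) with its 95% interval, for the 6 markers with reads in every library (y axis), in males (left) and females (right). Circles, squares and diamonds stand for 0.1, 0.5 and 5 mg/kg; most intervals include 0, and the interval of Csf1r in males at 5 mg/kg (-1.96 to -0.27) lies farthest from it.

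Over the 6 markers with reads in every library, the median log2 fold change was -0.22, -0.36 and -0.32 in males and -0.35, -0.44 and -0.23 in females, in order of dose. For the 6410 probes with reads in every library the male medians were 0.02, 0.04 and 0.06 and the female medians 0.01, 0.00 and -0.03. Between 4 and 5 of the 6 markers had negative estimates in each comparison, while 45.8% to 53.1% of those probes did. The treated groups of a sex share their control mice, so the comparisons are not independent of each other. Over all 9 tested markers the male medians were -0.38, -0.32 and -0.37 and the female ones -0.42, -0.60 and -0.23, but 3 of these rest on a handful of molecules, and over all probes the median stood at 0.10 in males at 5 mg/kg and between -0.01 and 0.00 elsewhere.

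Averaging the male and female differences, a comparison added after the data had been seen, did not call a marker either. The numbers called were 0 of 9 at 0.1 mg/kg (0.00559% of all probes), 0 of 9 at 0.5 mg/kg (1.57%) and 0 of 9 at 5 mg/kg (12.4%). At each dose 1 marker passed an unadjusted p below 0.05, against 8.66%, 12.4% and 20.6% of all probes. Here C1qb at 0.5 mg/kg had a log2 difference of -0.61 (SE 0.20, adjusted p = 0.132, edgeR) and Csf1r at 5 mg/kg one of -0.76 (SE 0.29, adjusted p = 0.104, edgeR). Both were called by DESeq2, with adjusted p values of 0.0511 and 0.076.

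Clec4f, the marker most restricted to Kupffer cells, had reads in 4 of 5 control males and in 3 of 5 males at 5 mg/kg. Its values were 0, 2.75, 3.2, 4.52 and 9.21 CPM in those controls and 0, 0, 0.119, 1.53 and 8.24 CPM at 5 mg/kg. The value of 0.119 CPM rests on 2 reads, about 0.08 of a molecule. In females all 5 controls had reads (3.06 to 17.2 CPM), as did all 5 mice at 0.1 mg/kg (4.47 to 18.2 CPM) and all 5 at 5 mg/kg (2.05 to 13.6 CPM), while 2 of the 4 mice at 0.5 mg/kg did (0, 0, 2.82 and 6.34 CPM). The groups overlapped throughout. Vsig4 had reads in 1 to 3 mice of each group, with no value above 6.65 CPM. Marco had reads in 1 of the 20 males and in 7 of the 19 females, 3 of them at 0.5 mg/kg, with no value above 5.35 CPM.

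The sexes were then compared. Whether a response to GenX differed between them was tested as an interaction, and no marker was called at 0.1 mg/kg (0% of all probes were), 0.5 mg/kg (0.274%) or 5 mg/kg (1.04%). At an unadjusted p below 0.05, 0, 2 and 0 markers passed, against 8.41%, 10.9% and 12.4% of all probes. C1qa at 0.5 mg/kg had the largest such estimate among the 6 markers with reads in every library, with a female response above the male one by 1.43 on the log2 scale (SE 0.64, adjusted p = 0.399, edgeR).

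Between control mice, Cd5l was higher in females. Control females had 46.3, 51.2, 70.1, 100 and 110 CPM and control males 8.58, 31.8, 40.6, 41.9 and 59.5 CPM. The groups overlapped through 1 male at 59.5 CPM. The log2 difference, female over male, was 1.05 (SE 0.33, adjusted p = 0.0751, edgeR's quasi-likelihood test). Cd5l was the only one of the 9 tested markers called, against 3.49% of all probes (2.11% higher and 1.38% lower in females), and none of the 9 had groups that did not overlap, against 3.56% of all probes. The call was lost without any one of 7 of the 10 control mice (101, 103, 104, 105, 151, 152 or 154), while the log2 difference stayed between 0.80 and 1.30 without any single mouse. It was also lost with all 40 libraries (adjusted p = 0.3, edgeR) and in a fit of the control mice alone (adjusted p = 0.219, edgeR).

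No other marker was called between control mice. Of the 6 markers with reads in every library, 5 had a positive estimate for females over males, with a median of 0.405 against 0.04 over the 6410 probes with reads in every library. C1qb was at 106 ± 23.2 CPM (SD, n = 5) in control females and 69.7 ± 14.5 CPM (n = 5) in control males, with a log2 difference of 0.60 (SE 0.27, adjusted p = 0.245, edgeR). The second C1qb probe gave 0.88 (SE 0.33). Marker levels summed over the 10 genes were 185 to 405 CPM in control females and 126 to 241 CPM in control males.

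Over the 4 doses together, a comparison added after the data had been seen, 3 of the 9 tested markers were higher in females, against 9.86% of all probes called in either direction, and the estimates of the 6 markers with reads in every library ranged from 0.12 to 0.74. Cd5l was higher by 0.74 on the log2 scale (SE 0.16, adjusted p = 0.0016, edgeR), C1qb by 0.48 (SE 0.14, adjusted p = 0.0197, edgeR) and Csf1r by 0.64 (SE 0.21, adjusted p = 0.0523, edgeR). The call of Csf1r was lost without mouse 154 or 452 (adjusted p up to 0.123, edgeR). The second C1qb probe was higher by 0.73 (SE 0.17, adjusted p = 0.00222, edgeR). The mean of Cd5l, of C1qb and of Csf1r was higher in females at each of the doses. These mice include the controls above, so the comparisons are not independent.

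Cd5l in females was at 53.5 ± 17.5 CPM (n = 5) at 0.1 mg/kg, 48 ± 22.1 (n = 4) at 0.5 mg/kg and 64.5 ± 22.1 (n = 5) at 5 mg/kg. In males it was at 39.2 ± 13.7, 36.8 ± 10.4 and 30.3 ± 4.81 CPM (n = 5 each) at the same doses. At 5 mg/kg all 5 females (44.8 to 96.3 CPM) lay above all 5 males (24.8 to 34.8 CPM), which held for none of the other 5 markers with reads in every library. Among all probes, 2.98% separated the sexes at this dose, counted in either direction. At 0.1 and 0.5 mg/kg none of the 6 markers separated the sexes in either direction, against 2.44% and 3.5% of all probes.

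Because Cd5l and C1qb were the markers with the lowest adjusted p values between the sexes, the 250 bases upstream of their start sites are shown, from RefSeq on GRCm38.p6. The Cd5l bases are chr3:87357631-87357880 on the plus strand and the C1qb bases chr4:136886201-136886450 on the minus strand. Capitals mark, on either strand, the letters GAGGAA, a core bound by the macrophage factor PU.1, and the letters TGCTGA, the core of the site that MAF factors bind.
Cd5l: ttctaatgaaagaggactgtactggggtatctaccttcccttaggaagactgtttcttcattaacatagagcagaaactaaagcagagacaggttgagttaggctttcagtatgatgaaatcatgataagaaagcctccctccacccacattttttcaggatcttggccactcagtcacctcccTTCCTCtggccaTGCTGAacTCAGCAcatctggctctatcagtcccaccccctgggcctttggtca
C1qb: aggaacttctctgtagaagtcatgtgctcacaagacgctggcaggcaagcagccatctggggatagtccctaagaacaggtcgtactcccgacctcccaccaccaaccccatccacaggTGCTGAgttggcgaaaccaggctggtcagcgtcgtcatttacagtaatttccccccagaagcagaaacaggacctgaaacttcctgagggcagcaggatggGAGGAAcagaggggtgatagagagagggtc
Cd5l held 1 match to GAGGAA and 2 to TGCTGA, and C1qb held 1 of each, with no overlap between them. Of 32851 windows of the same length before RefSeq start sites, 23.3% held a match to GAGGAA and 16.1% to TGCTGA. A match describes the letters and is not evidence of binding.

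**Figure D4:**
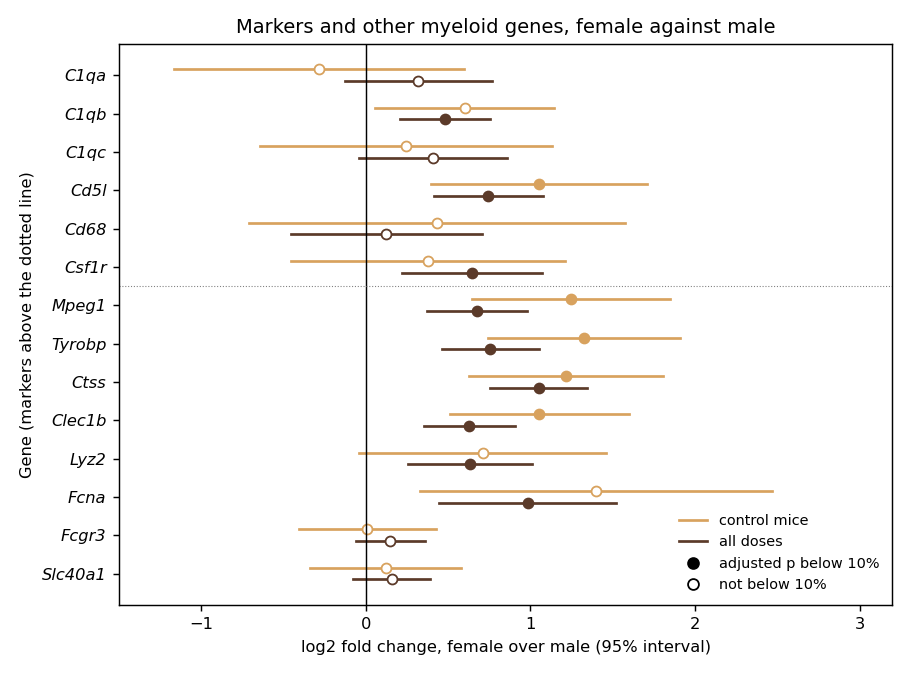
Log2 fold change of females over males with its 95% interval (x axis), between control mice (light brown) and over all doses (dark brown), for the 6 markers (above the dotted line) and the 8 other Kupffer cell and myeloid genes with reads in every library (below it). Filled points have an adjusted p below 10%; Cd5l is filled in both comparisons and 13 of the 14 genes have estimates above 0 in the control mice.

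Some other macrophage genes were also higher in control females. Of 11 tested genes that myeloid cells share, 3 were higher in control females, none was lower, and the median was 1.12. Mpeg1, a pore-forming protein of phagocytes, was at 186 to 773 CPM in control females and 90.1 to 310 CPM in control males (log2 difference 1.24, SE 0.30). Tyrobp, a signalling adaptor of myeloid receptors, was at 94.8 to 188 CPM against 20.1 to 64.2 CPM (1.33, SE 0.29), and Ctss, a lysosomal protease, at 54.5 to 123 CPM against 23.9 to 54.7 CPM (1.22, SE 0.29). Mpeg1 was not called without 1 control female, mouse 154 (adjusted p = 0.138, edgeR).

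Of 11 tested other Kupffer cell genes, 1 was higher and none lower in control females, and the median was 0.30. Clec1b, a C-type lectin receptor found on Kupffer cells in mice, was at 37.8 to 83.4 CPM against 12.8 to 44 CPM (log2 difference 1.05, SE 0.27). Fcgr3, an activating Fc receptor with 63.5 to 135 CPM in control females and 81.8 to 135 CPM in control males, showed no difference (0.01, 95% interval -0.41 to 0.44). Spic, a transcription factor of iron-recycling macrophages, had no reads in any library.

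Among genes of other cells, few calls were made between control mice. Of the 2 tested neutrophil genes and the 8 of sinusoidal endothelial cells, 0 were called, and of the 7 hepatocyte genes 1 was higher in control females, Alb, and 1 lower, Apob. Of the 3 tested red blood cell genes 1 was lower, Alas2. Over the 4 doses together, the sinusoidal genes Stab2, Fcgr2b and Clec4g and the neutrophil gene Ly6g were higher in females. The summed level of 5 neutrophil genes was 15.8 to 56.9 CPM in control females and 1.75 to 16.5 CPM in control males, and of the 5, S100a9 had no reads. The 8 genes of sinusoidal endothelial cells summed to 275 to 355 CPM in control females and 248 to 267 CPM in control males. The 7 hepatocyte genes summed to 27879 to 46247 CPM and 35790 to 42017 CPM, so that the hepatocyte sums of the sexes overlapped. Apoa1, with a median of 19958 CPM over the libraries, made up the largest part of the hepatocyte sums. The part of these cell types, and of the larger number of molecules in control females (median 418492) than in control males (329947), in the marker differences was not tested.

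The ligands of the markers and the partners of C1q in the complement cascade, the latter largely made by hepatocytes, included genes called at 5 mg/kg. Of these 11 genes, 6 fell in males and 4 in females, and none rose. C1s1, the serine protease that C1q activates through C1r, ranged from 255 to 725 CPM in control males and from 121 to 248 CPM in males at 5 mg/kg, with no overlap. Control females ranged from 337 to 446 CPM and females at 5 mg/kg from 68.8 to 184 CPM. Its log2 fold change was -1.65 in males (SE 0.24) and -1.62 in females (SE 0.24), and its other 2 probes were called lower in both sexes as well. C1s1 has a close copy in the mouse genome, C1s2, so reads may be split between them.

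Serping1, the inhibitor of C1r and C1s, fell by 1.11 on the log2 scale in males (SE 0.19) and by 0.70 in females (SE 0.19). Cfi, the protease that inactivates C3b, fell by 0.86 in males (SE 0.15) and by 0.91 in females (SE 0.15). Masp1, a protease of the lectin pathway, fell by 1.01 in males (SE 0.18) and by 0.58 in females (SE 0.18). The female call of Masp1 was lost without any one of the mice 152, 153, 154, 155, 451, 452, 454 and 455 (adjusted p up to 0.304, edgeR) and held in 4 of 7 alternative settings. The female call of Serping1 was lost without mouse 152 (adjusted p = 0.103, edgeR). C1rl, a C1r-like protease, was called lower in males (-0.81, SE 0.25) and was at -0.26 (SE 0.25) in females, and its male call was lost without mouse 102 or 404 (adjusted p up to 0.133, edgeR). These calls have adjusted p values from 7.98e-07 to 0.0803 in edgeR's quasi-likelihood test. The 3 C1q chains lay between -0.48 and 0.29 in the same comparisons with SE from 0.27 to 0.44, none called. The difference between the C1q chains and the partners was not tested.

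Masp2, the other protease of the lectin pathway, fell in males but not detectably in females. Control males ranged from 101 to 172 CPM and males at 5 mg/kg from 35.9 to 69.3 CPM (log2 fold change -1.16, SE 0.19). Control females ranged from 90.1 to 132 CPM and females at 5 mg/kg from 80.4 to 123 CPM (-0.08, 95% interval -0.45 to 0.29). The interaction test called it, with 1.08 on the log2 scale (SE 0.26, adjusted p = 0.0336, edgeR). In males it was already lower at 0.5 mg/kg (-0.75, SE 0.19). C3, the protein on which the pathways converge, was not called at 5 mg/kg on its most counted probe in either sex, while another of its probes was called lower in males (-0.73, SE 0.17). Csf1 and Il34, the ligands of Csf1r, were not called in any of the 6 comparisons.

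**Figure D5:**
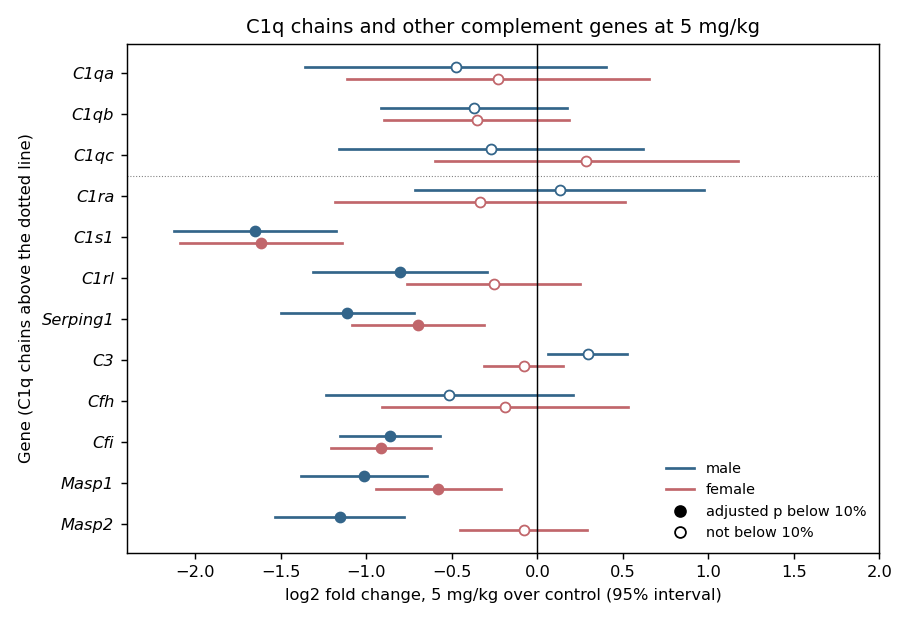
Log2 fold change of 5 mg/kg over control with its 95% interval (x axis) for the C1q chains (above the dotted line) and 9 complement genes (below it), in males (blue) and females (red). Filled points have an adjusted p below 10%: the C1q chains are all open, while C1s1, Serping1, Cfi and Masp1 are filled on the left of 0 in both sexes, with the female calls of Masp1 and Serping1 lost when single mice are left out.

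Among the macrophage and myeloid lists, calls at 5 mg/kg were made in males and none in females. Of 11 tested genes shared by myeloid cells, 2 were higher: Lyz2, lysozyme, ranged from 26.9 to 65.3 CPM in control males and from 49 to 158 CPM at 5 mg/kg (log2 fold change 1.21, SE 0.38), and Aif1, a calcium-binding protein of macrophages, had no reads in 5 of 5 control males and reads in 4 of 5 treated males, at most 3.11 CPM. Lyz2 has a close copy, Lyz1. Of 6 tested monocyte and recruited macrophage genes, 1 was higher, Cd9, a tetraspanin also made by other liver cells, which ranged from 5.11 to 29.8 CPM in control males and from 42.5 to 64.7 CPM at 5 mg/kg (1.51, SE 0.34). Of 11 tested other Kupffer cell genes, 1 was lower, Folr2, with reads in 2 of 5 control males (at most 7.5 CPM) and in 0 of 5 treated males. Apart from that of Cd9, these calls were lost when certain single mice were left out. Aif1 was called in 17 of 39 fits that each left out 1 mouse (adjusted p from 0.0838 to 0.162, edgeR), Lyz2 was not called without mouse 102 or 405 (adjusted p up to 0.184, edgeR), and Folr2 was not called without mouse 102 or any one of the 5 treated males (adjusted p up to 0.128, edgeR). The second Folr2 probe was at -0.11 (SE 2.45) in males at 5 mg/kg and was not called. Folr2 was called in 3 of 5 alternative settings, with log2 fold changes from -7.95 to -1.51, and Aif1 likewise in 3 of 5. None of Lyz2, Aif1, Cd9 and Folr2 was called in the interaction test at 5 mg/kg. Cd9 was also higher in control females than in control males (log2 difference 1.18, SE 0.33), a call lost without mouse 102 or 153, and Lyz2, Aif1 and Cd9 were higher in females over the 4 doses together.

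Some genes of other cell types were called at 5 mg/kg as well. The 8 stellate cell genes summed to 172 to 205 CPM in males at 5 mg/kg against 76.5 to 142 CPM in control males, with Col1a1 and Col3a1, the fibrillar collagens, called higher (1.63, SE 0.53, and 2.45, SE 0.67). The other tested probes of these collagens were not called there. They were at 1.48 (SE 0.92) for Col1a1 and at 2.34 (SE 1.02) and -0.445 (SE 1.89) for Col3a1. The other 6 genes of the list were not called, 3 of the 8 had negative estimates, and the call of Col1a1 was lost without mouse 101, 102 or 402 (adjusted p up to 0.16, edgeR). In females the same sum was 111 to 173 CPM at 5 mg/kg and 111 to 181 CPM in controls, and none of the 8 was called. The 7 hepatocyte genes summed to 20891 to 27863 CPM against 35790 to 42017 CPM in control males. In females they summed to 18646 to 28218 CPM against 27879 to 46247 CPM in controls. Apoa1 made up the largest part of these sums, with a median of 19958 CPM over the libraries against 3876 for Alb, the next gene. The sums thus largely follow 1 gene and do not measure hepatocyte RNA as a whole. All 7 genes had negative estimates in both sexes. Of these 7, Ahsg, Apoa1 and Fgb were called lower in both sexes, and Apob in males. The female call of Apoa1 was lost without mouse 152 or 451 (adjusted p up to 0.186, edgeR). Clec4g, a lectin of sinusoidal endothelial cells, was called lower in males (-0.61, SE 0.21), but not without mouse 102, 103, 401, 402 or 403 (adjusted p up to 0.202, edgeR). Of the genes of cholangiocytes, neutrophils, T and NK cells, B and plasma cells and red blood cells, none was called in the 6 comparisons, and of the B and plasma cell genes the most detected, Jchain, had reads in 25 libraries. CPM are shares of a library, and the part of these shifts in the marker values was not tested.

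Across the 39 libraries the markers varied together only in part. The 36 pairs among the 9 markers with reads had Pearson correlations of log2 CPM from -0.34 to 0.60 with a median of 0.17, and 2 pairs were above 0.5. These were Cd5l with Csf1r (0.60) and Cd5l with C1qb (0.54). After the mean of each group was subtracted, they were 0.57 and 0.36. The C1q chains, whose products assemble into 1 molecule, correlated at 0.32 (C1qa with C1qb), 0.28 (C1qb with C1qc) and 0.16 (C1qa with C1qc). The libraries share sex, dose and depth groups, and with few molecules counting error lowers such values, so they are given as a description.

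The genes outside the markers whose log2 CPM followed the mean of the 9 markers most closely, among 12403 genes, were Cd74, Ctnnd1, Gbp2b, Orm3 and Tyrobp. Cd74, the invariant chain of MHC class II that antigen-presenting cells express, had a Pearson correlation of 0.72, and 0.53 after group means were subtracted. The others were at 0.70 for Ctnnd1 (0.37 after subtraction), 0.69 for Gbp2b (0.56), 0.65 for Orm3 (0.48) and 0.64 for Tyrobp (0.42), where the median of all genes was -0.01. Among the listed macrophage genes, Ctss reached 0.61, Mpeg1 0.60 and Clec1b 0.50. Fcgr3 was at -0.01 and Adgre1, which encodes F4/80, at 0.02 with reads in 25 libraries. Listed genes of other cells ranged from -0.33 (Apob) to 0.62 (Clec4g), with the T cell gene Cd3d at 0.51 and C3 at 0.50. Ly6g and the stellate cell gene Dcn were at 0.49, so such values were not confined to macrophage genes. The mean of the 9 markers includes Clec4f, Vsig4 and Marco, which rest on few molecules.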

How the data were processed

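Livers of 40 mice were measured with TempO-Seq. The deposited values are raw counts of reads per probe and mouse, which the authors had not normalized. Per the labels, base calling used bcl2fastq 2.17.1.14 and alignment used Bowtie on mm10; settings are not given in the sources used here. Groups, doses and sexes are those of the labels. The library of mouse 355 was left out because its total lay more than 2 SD below the mean of all libraries.

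Tests used edgeR 4.0.16 in R 4.3.3: TMM, the default filter on low counts, a coefficient for each of the 8 groups and the quasi-likelihood F-test, two-sided, with Benjamini-Hochberg adjustment over 17877 probes and a threshold of 10%. Intervals are 95%. Counts were checked as whole numbers, and scripts were tested on simulated data. Log2 CPM used a prior count of 2. Reads per molecule are the first peak of the histogram of counts, smoothed with a Gaussian of 2 reads. Gene positions are from GENCODE M21.

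The markers and the 12 other gene lists were chosen with earlier results of these data known. All 10 markers are described; from the lists, genes called in a comparison are named, and otherwise the most counted; a few others were named after their values were seen, such as Fcgr3, Spic, Adgre1 and S100a9. The 5 genes most correlated with the markers' mean are named. Alternatives were DESeq2 1.42.0, its size factors in edgeR, no filter, all 40 libraries, a fit of the compared groups alone, summed probes, counts in molecules, a prior count of 0.5 and leaving out each mouse. The averages over the sexes, the females against males over all doses, the overlap of the sexes at each dose and the medians over 6 markers were added after seeing the data.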

Additional observations from a re-analysis of the deposited data

Results flagged for a closer look

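Dixon's test at 95% was applied to the 9 markers in the 8 groups. Single mice stood apart from the rest of their group in 9 of 68 tests. For normally distributed values chance flags about 1 in 20. A group with reads in 1 mouse only is always flagged, as for Vsig4 and Marco in control males. The number flagged can therefore not be set against that rate. C1qb was flagged in males at 0.5 mg/kg, where mouse 303 had 20.8 CPM and the next mouse 50.7, in males at 5 mg/kg, where mouse 405 had 82.9 CPM and the next 47.8, and in females at 5 mg/kg, where mouse 452 had 144 CPM and the next 71.5. Cd68 was flagged in control males, with 17.5 CPM in mouse 105 and 7.49 in the next. The remaining 5 rest on few molecules: Clec4f at 8.24 CPM in mouse 404 (males, 5 mg/kg), Vsig4 at 2.22 CPM in mouse 104 (control males) and 4.61 CPM in mouse 202 (males, 0.1 mg/kg), and Marco at 2.11 CPM in mouse 103 (control males) and 3.35 CPM in mouse 152 (control females).

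The response of Masp2 at 5 mg/kg differed between the sexes, by 1.08 on the log2 scale (female minus male), in the interaction test.

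The library of mouse 355, used in no comparison except the alternative with all 40 libraries, held more of the markers than the control females. With all 40 libraries scaled together, it had 224 CPM of Cd5l against at most 112 in control females, 373 of C1qb against 136, 141 of Csf1r against 75.8 and 73.3 of Marco against 3.38. It also had 48.2 CPM of C1qa against 41.1, 48.7 of C1qc against 39.8, 26.5 of Cd68 against 15.9, 11.7 of Vsig4 against 6.69 and 18 of Clec4f against 17.5. For 6 of the 9 markers its value was above that of every other library, which held for 11.8% of 17247 probes. It had 6711981 reads at 72.9 reads per molecule, about 92099 molecules, so that its 603 Marco reads stand for about 8.27 molecules and its 3071 C1qb reads for about 42.1. The part of this low depth in the values was not tested.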

How the results depend on the processing

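The 9 tested markers gave 0 calls in the treated comparisons under every alternative except in males at 5 mg/kg. There 1 marker, Csf1r, was called with DESeq2, with DESeq2's size factors, without the filter on low counts, with probes summed by gene and with counts in molecules, and leaving out single mice gave 0 to 1. The call of 1 marker, Cd5l, between control females and males became 0 with all 40 libraries and with only the groups compared, and leaving out single mice gave 0 to 1. In the averages over both sexes, 1 marker was called instead of 0 at 0.5 mg/kg with DESeq2, without the filter and with counts in molecules (0 to 1 without single mice), and 1 instead of 0 at 5 mg/kg with DESeq2, its size factors, no filter, summed probes and counts in molecules (0 to 2 without single mice, with 2 when mouse 452 was left out). The 3 calls of females over males at all doses stayed at 3 under the alternatives run and at 2 without mouse 154 or 452.

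Of 748 values of single genes under an alternative, 664 kept direction and side of the threshold, 50 lost a call, 6 gained one and 28 changed sign, none of the last being called. With all 40 libraries, females at 0.5 mg/kg changed to 0.26 for C1qb, 0.12 for Cd5l and 0.53 for Csf1r. With probes summed, Cd68 changed to -0.15 in males at 0.1 mg/kg, -0.12 in females at 0.5 mg/kg and -0.23 in females at 5 mg/kg. Cd5l in males at 0.5 mg/kg changed from 0.01 to -0.045 with DESeq2 and with its size factors, -0.004 with only the groups compared and -0.073 with counts in molecules, which also gave -0.008 for C1qc in females at 0.1 mg/kg. Without single mice, the log2 fold change spanned 0 for C1qa from -0.45 to 0.25 (females at 0.1) and from -0.48 to 0.24 (females at 5), C1qb from -0.24 to 0.05 (males at 0.1), C1qc from -0.69 to 0.12 (males at 0.1), from -0.50 to 0.48 (males at 0.5), from -0.45 to 0.36 (males at 5), from -0.26 to 0.32 (females at 0.1) and from -0.087 to 0.50 (females at 5), Cd5l from -0.15 to 0.35 (males at 0.1) and from -0.24 to 0.26 (males at 0.5), Cd68 from -0.17 to 0.57 (males at 0.1), from -0.33 to 0.23 (females at 0.5) and from -0.11 to 0.29 (females at 5), Csf1r from -0.67 to 0.026 (females at 0.1), from -0.47 to 0.22 (females at 0.5), from -0.70 to 0.039 (females at 5) and from -0.065 to 0.63 (control females over males). The cause of these changes was not tested, beyond the smaller or larger number of mice or probes in a setting. A prior count of 0.5 lowered the markers' mean log2 CPM by less than the spread between mice. No paired analysis was possible because the groups share no replicate numbers. With 0 to 64.2 molecules per library, the depth limits what can be seen of these genes.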
